A study of Mus musculus with 5 samples.

Results

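The genes described here are 10 genes of the integrated stress response and the unfolded protein response: Atf4, Atf3, Ddit3, Xbp1, Hspa5, Asns, Psat1, Trib3, Sesn2 and Ddit4. Every non-control probe that carries one of these names on a mouse whole-genome array was taken, which gave 12 of 41174 probes and 10 of 27962 gene names. Trib3 and Sesn2 had a pair of probes each and the other genes had 1 probe. The arrays held RNA of 5 mouse embryonic stem cell (ESC) lines, with 1 one-colour array per line. The wild-type lines were RF8, a male line of 129sv origin, and #620-2, a female line on a C57BL6/129sv background. The ECAT11EGFP/EGFP lines were #620-6, a female line, and #757-1 and #757-2, both male, all on C57BL6/129sv. In these 3 lines both copies of the coding region of ECAT11, an ESC-associated transcript, were replaced with EGFP followed by a puromycin resistance gene. The knock-in allele had been made in RF8, and the #620 and #757 lines were derived from blastocysts of heterozygous crosses. All 5 lines were grown on gelatin in medium with LIF and serum. The labels name no stress-inducing agent for any line.

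ATF4 is a transcription factor whose protein is made mainly when kinases phosphorylate the translation factor eIF2α, as happens on amino acid shortage, haem shortage, viral RNA or misfolded protein in the endoplasmic reticulum (ER). It switches on genes for amino acid supply and for the stress response itself, including Atf3, Ddit3, Asns, Trib3 and Sesn2. The unfolded protein response adds further branches: the sensor IRE1 splices Xbp1 mRNA, the sensor ATF6 is cut by proteases, and both raise ER chaperones such as Hspa5. ATF4 and XBP1 are thus set largely after transcription. The arrays measured total mRNA, so neither ATF4 protein nor the spliced form of Xbp1 was measured here.

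Both arms leave a mark in promoter sequence. The C/EBP-ATF response element (CARE, TGATGNAA) is bound by ATF4 with C/EBP partners, and the ER stress response element (ERSE, CCAAT, 9 bases of any kind, then CCACG) is bound by ATF6 or XBP1 with NF-Y. The UPRE (TGACGTGG) was searched as well. RefSeq promoters of build GRCm38.p6 were searched on both strands from 250 bases before to 50 bases after the start, and all 10 genes had one. The CARE letters were in 3 of the 10 genes (30%), against 3.97% of all 32851 promoters, and the ERSE letters in 1 of 10, against 0.119% of all. The UPRE letters were in none of the 10, and in 0.676% of all promoters. The 3 genes with a match upstream of the start are shown over the 150 bases before it. Capitals mark the matched letters, and lines run 5′ to 3′ in the direction of transcription.
Atf3 promoter, chr1:191183334-191183483, reverse strand: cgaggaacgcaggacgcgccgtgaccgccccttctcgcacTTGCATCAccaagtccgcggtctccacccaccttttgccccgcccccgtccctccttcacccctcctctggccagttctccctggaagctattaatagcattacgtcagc
Hspa5 promoter, chr2:34771940-34772089, forward strand: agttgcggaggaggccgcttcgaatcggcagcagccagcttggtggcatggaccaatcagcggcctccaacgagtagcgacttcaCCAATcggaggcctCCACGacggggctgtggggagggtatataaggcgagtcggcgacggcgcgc
Asns promoter, chr6:7693210-7693359, reverse strand: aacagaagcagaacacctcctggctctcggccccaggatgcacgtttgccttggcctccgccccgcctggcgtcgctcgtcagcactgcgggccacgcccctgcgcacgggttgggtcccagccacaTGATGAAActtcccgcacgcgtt
The Atf3 match lies on the opposite strand at -110 to -103, the Asns match at -23 to -16 and the Hspa5 match at -65 to -47, counted from the annotated start. In Trib3 the match, also on the opposite strand, lies just after the start, at 15 to 22, and is shown with its flanks only.
Trib3 start region, chr2:152344028-152344057, reverse strand: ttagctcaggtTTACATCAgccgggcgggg
No match to the 3 motifs was found in these windows for Atf4, Ddit3, Xbp1, Psat1, Sesn2 or Ddit4. A match is a description of the sequence and not a measured binding site.

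Signal is given as log2 of the background-corrected intensity after division by the array's 75th percentile, so 0 is the level of that percentile and a step of 1 is a doubling. Probes differ in how brightly they hybridise, so levels are compared between lines for 1 probe and not between genes. The 75th percentile was 692.2 to 797 intensity units, and 21250 to 27144 probes per array were well above background, fewest on #757-1 and #757-2. These 2 lines were hybridised on a second slide, so slide and line cannot be told apart for them. The ESC markers Pou5f1, Sox2, Nanog, Utf1, Fbxo15, Dppa5a, Esrrb, Tdgf1 and Zfp42 were all well above background in each line. Their summed scaled signal (linear, in multiples of the 75th percentile) was 475.6 to 554.5, of which Dppa5a made up 56.4% to 71.2%. Single markers varied more. Zfp42 (REX1) read 4.003 in #620-6 and 3.866 in #757-2 against 6.998, 6.794 and 6.547 in RF8, #620-2 and #757-1, and Nanog ran from 2.53 in RF8 to 4.53 in #620-6. The sum of 9 fibroblast markers was 62.04 and 63.72 in #620-2 and #620-6, 20.54 in RF8, and 6.08 and 8.46 in #757-1 and #757-2. S100a4 alone made up 78.5% and 81.3% of the sum in the #620 lines. Without it the sum was highest in RF8, at 19.59, then 13.32 and 11.91 in #620-2 and #620-6, and 5.76 and 8.09 in #757-1 and #757-2. Among those markers Lum was well above background on 2 arrays only. The sum of 7 primitive endoderm markers was 1.60 and 1.40 in #620-2 and #620-6 and 0.57 to 0.62 in the other lines, with 4 to 7 of them well above background. The part of other cells in the results below was not tested.

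All 12 probes were well above background in all 5 lines, so each line had a measured level of each gene, and all passed the filter on dim probes. As a yardstick for error within an array, 130 probes printed in 10 spots were used, with levels anywhere between the lowest and highest value of the 12 probes. In 95% of their spot pairs the difference was under 0.18 on the log2 scale. Smaller differences between lines are not separated from this spot error, and the yardstick leaves out culture, extraction and labelling. It pools bright and dim probes and was not matched to the level of each gene. How well it holds for dim probes, such as those of Atf3 and Ddit3, was not tested.

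**Figure D1:**
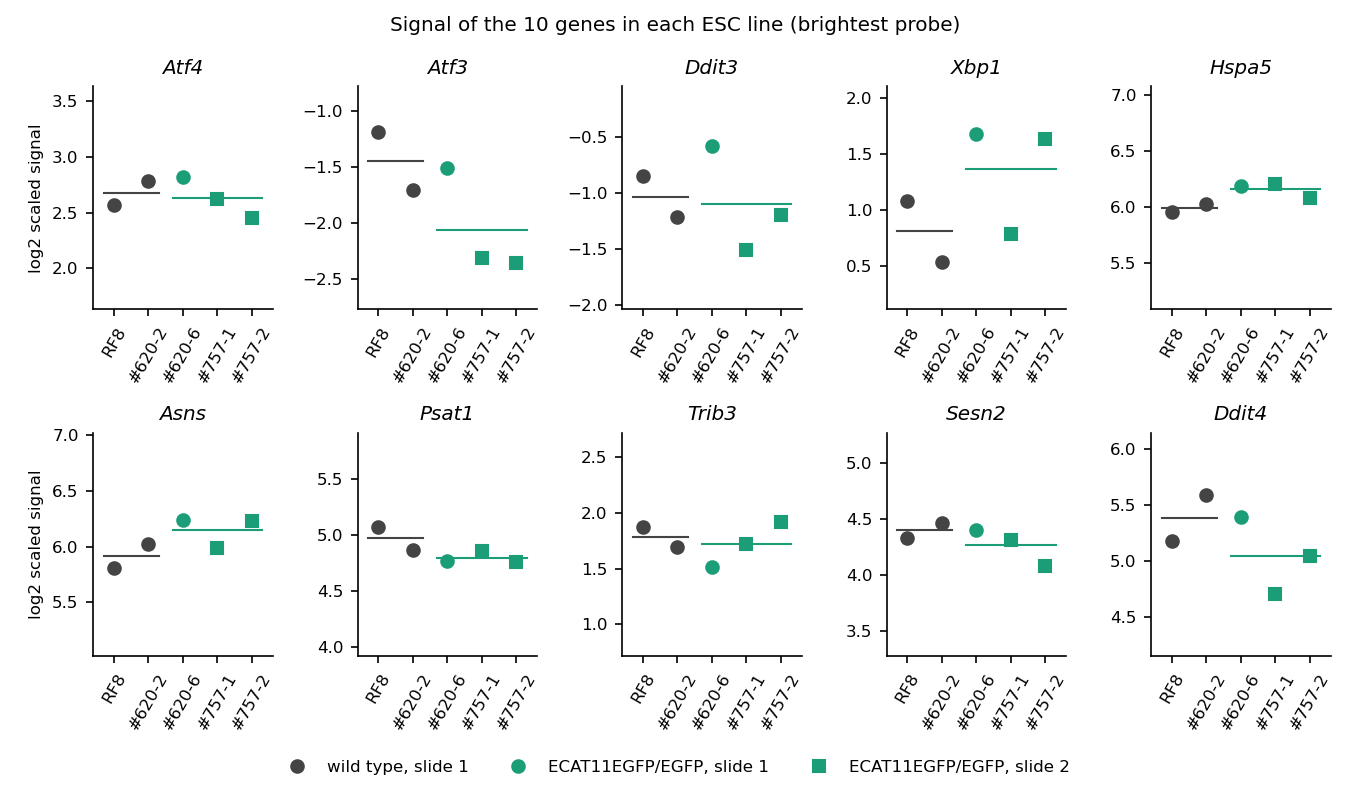
Log2 scaled signal (vertical axis, every panel spanning 2 log2 units) of the 10 genes in the 5 ESC lines (horizontal axis), 1 array per line, with horizontal bars for the genotype means. Circles are lines of slide 1 and squares lines of slide 2. Atf3 was lowest in both slide 2 lines, Xbp1 was high in #620-6 and #757-2, and Hspa5 stayed within 0.25 log2 units.

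Atf4 itself varied little between the lines. Its probe (chr15:80341130-80341189, mm7) read 2.56 in RF8, 2.78 in #620-2, 2.82 in #620-6, 2.62 in #757-1 and 2.45 in #757-2. The genotypes overlapped, and no step between neighbouring lines in this order of levels passed the spot error. The whole range was 0.37 on the log2 scale, or 1.29-fold.

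Atf3, a stress-induced repressor and activator downstream of ATF4, had the widest range of the 10. Its probe (chr1:190724174-190724233, mm7) read -1.19 in RF8, -1.70 in #620-2, -1.51 in #620-6, -2.31 in #757-1 and -2.36 in #757-2. The low lines were the 2 of slide 2, which were within spot error of each other, while #620-6 lay between both wild-type lines. The range was 1.17, or 2.25-fold. The fibroblast marker sum was also lowest in #757-1 and #757-2, with or without S100a4, but the single markers were split. Col1a2, Col3a1, Thy1 and S100a4 were lowest in both of these lines. Dcn and Lum were lowest in RF8, where Atf3 was highest, Postn in #620-2, Fn1 in #620-6, and Col1a1 in #757-1 but not #757-2. Whether slide or other cells contributed to the Atf3 difference was not tested. In such bulk RNA, fewer cells of a type and less RNA per cell cannot be told apart.

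Ddit3 encodes CHOP, a factor that promotes cell death when ER stress lasts. Its probe (chr10:126796858-126797161, mm7) read -0.85 in RF8, -1.21 in #620-2, -0.58 in #620-6, -1.50 in #757-1 and -1.20 in #757-2. The highest and the lowest line were both ECAT11EGFP/EGFP, so the wild-type values fell inside the knock-in range of 0.93.

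Xbp1, the factor of the IRE1 branch, was high in 2 of the 5 lines. Its probe (chr11:5476970-5477029, mm7) read 1.08 in RF8, 0.53 in #620-2, 1.68 in #620-6, 0.78 in #757-1 and 1.63 in #757-2. The lines #620-6 and #757-2 were within spot error of each other and above the other 3. Of the ESC markers only Zfp42 was lowest in the same 2 lines, and its link to Xbp1 was not tested. Nanog was highest in #620-6, and Fbxo15 read 5.60 in #620-6 and 5.87 in #757-2. It read 5.78 in #757-1, 4.92 in RF8 and 4.12 in #620-2. For Xbp1, #757-1 and #757-2, of the same genotype, sex label and slide, differed by 0.85, and the genotypes overlapped.

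Hspa5 encodes BiP, the main ER chaperone and a usual readout of ER stress. Its probe (chr2:34783421-34783480, mm7) read 5.95 in RF8, 6.02 in #620-2, 6.18 in #620-6, 6.21 in #757-1 and 6.08 in #757-2. All 3 ECAT11EGFP/EGFP lines were above both wild-type lines, but no neighbouring lines differed by more than the spot error. The range of 0.25 was the narrowest of the 10 genes.

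Among the effectors of ATF4, Asns and Psat1 serve amino acid synthesis. Asns makes asparagine, and its probe (chr6:7628080-7628139, mm7) read 5.80 in RF8, 6.02 in #620-2, 6.23 in #620-6, 5.98 in #757-1 and 6.23 in #757-2. The order resembled that of Xbp1 in its 2 highest lines, #620-6 and #757-2, and here RF8 was lowest. Psat1 acts in serine synthesis, and its probe (chr19:15606408-15606467, mm7) read 5.07 in RF8, 4.87 in #620-2, 4.77 in #620-6, 4.86 in #757-1 and 4.76 in #757-2. All 3 ECAT11EGFP/EGFP lines were below both wild-type lines, with #757-1 and #620-2 only 0.0057 apart.

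The other 3 effectors are regulators of growth and of the response itself. Trib3, a pseudokinase that restrains AKT and ATF4, read 1.87 in RF8, 1.70 in #620-2, 1.52 in #620-6, 1.72 in #757-1 and 1.92 in #757-2 on its brighter probe (chr2:152078476-152078535, mm7). Its dimmer probe (chr2:152079146-152079205, mm7) read -1.19, -1.14, -1.63, -1.21 and -1.19 in the same order of lines. On both probes #620-6 was the lowest line and the step up to the next line passed the spot error.

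Sesn2 encodes sestrin 2, a leucine sensor that holds back mTORC1. It read 4.33 in RF8, 4.47 in #620-2, 4.40 in #620-6, 4.31 in #757-1 and 4.08 in #757-2 on its brighter probe (chr4:131870492-131870551, mm7). The dimmer probe (chr4:131871376-131871435, mm7) read 2.11, 2.13, 1.98, 1.77 and 1.51 in the same order of lines. #757-2 was lowest and #620-2 highest on both. The genotypes overlapped on the brighter probe and did not on the dimmer one, where the ECAT11EGFP/EGFP lines were lower.

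Ddit4 encodes REDD1, another inhibitor of mTORC1. Its probe (chr10:59467933-59467992, mm7) read 5.18 in RF8, 5.59 in #620-2, 5.40 in #620-6, 4.71 in #757-1 and 5.05 in #757-2. Both slide 2 lines were below the 3 lines of slide 1, though the step from RF8 to #757-2 was 0.13 and within spot error. Positions of the probes are those of the array annotation. Where they lie within the transcripts was not analysed here.

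Whether the 10 genes differed between the genotypes was asked with limma across all 28972 kept probes, 2 wild-type lines against 3 ECAT11EGFP/EGFP lines. None of the 10 genes was called at an adjusted p of 0.05 and a 2-fold difference, and 0.00345% of all probes (1 probe) were. None of the 10 reached an unadjusted p under 0.05 either, a mark that 4.03% of all probes passed with a higher and 3.59% with a lower level in ECAT11EGFP/EGFP. Of the 10, 3 had a higher and 7 a lower mean in ECAT11EGFP/EGFP, with a median log2 fold change of -0.06 against -0.02 over all kept probes. P-values measure the spread between single arrays of these lines, and with 2 against 3 lines an exact permutation test of 1 gene cannot go below 0.1.

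The largest differences were those of Atf3 and Xbp1. The mean of Atf3 was -1.44 ± 0.36 (SD, n = 2) for the wild-type lines and -2.06 ± 0.48 (SD, n = 3) for the ECAT11EGFP/EGFP lines. The log2 fold change was -0.62 ± 0.35 (SE), with limma's 95% interval from -1.54 to 0.31 (adjusted p = 0.80). Xbp1 averaged 0.81 ± 0.39 (SD, n = 2) and 1.36 ± 0.51 (SD, n = 3), a log2 fold change of 0.56 ± 0.37 (SE) with limma's interval from -0.42 to 1.53 (adjusted p = 0.84). Neither passed the test, and the lines of both genotypes overlapped in each gene. For Ddit4, the third by size, limma gave -0.34 ± 0.28 (SE; interval -1.06 to 0.39, adjusted p = 0.88).

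For the other 7 genes the intervals lay inside 2-fold in both directions. They ran from -0.54 to 0.45 for Atf4, from -0.94 to 0.81 for Ddit3 and from -0.21 to 0.54 for Hspa5. On the brighter probes of the effectors they ran from -0.22 to 0.69 for Asns, from -0.58 to 0.23 for Psat1, from -0.57 to 0.43 for Trib3 and from -0.60 to 0.32 for Sesn2. The dimmer Sesn2 probe gave -0.37 ± 0.20 (SE; limma interval -0.88 to 0.15, adjusted p = 0.78), and the dimmer Trib3 probe -0.18 ± 0.20 (SE; interval -0.72 to 0.35). For Atf4, Hspa5 and Psat1, and for Trib3 on its brighter probe only, the interval lay inside 1.5-fold. The adjusted p of these 7 genes ran from 0.86 for Asns to 0.99 for Ddit3.

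The genotype groups did not overlap for 1 of the 10 genes with ECAT11EGFP/EGFP higher (Hspa5) and for 1 with it lower (Psat1). Over all probes, 11.2% were fully separated with ECAT11EGFP/EGFP higher and 12.4% with it lower, so 1 of 10 in each direction is close to the background. The size was 0.17 ± 0.14 (SE) for Hspa5 and -0.17 ± 0.15 (SE) for Psat1 on the log2 scale in the limma fit (adjusted p = 0.89 for each).

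**Figure D2:**
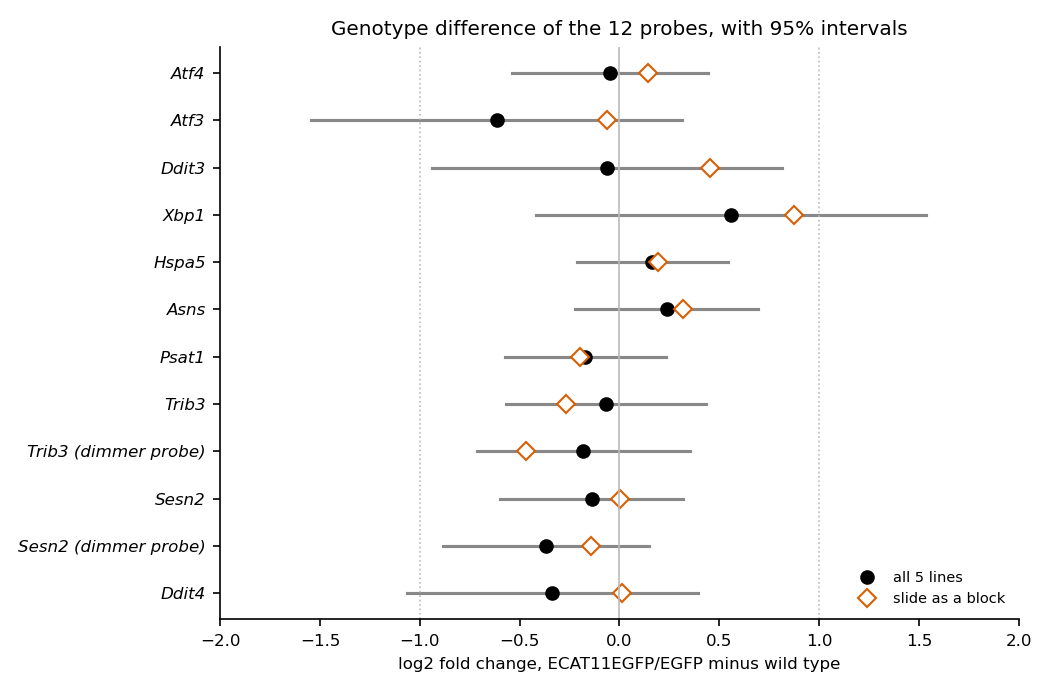
Log2 fold change, ECAT11EGFP/EGFP minus wild type (horizontal axis), for each of the 12 probes. Black points are the limma estimates over 5 lines with 95% intervals, open diamonds the estimates with slide as a block, and dotted lines mark 2-fold. Every interval crosses 0, and the Atf3 difference of -0.62 moves to -0.06 with the block.

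With slide as a block the comparison rests on #620-6 against RF8 and #620-2, since slide 2 held no wild-type line. Atf3 then differed by -0.06 (adjusted p = 0.97) and Xbp1 by 0.87 (adjusted p = 0.71) in limma. Atf4, Ddit3, Ddit4 and Sesn2 changed sign, to 0.14, 0.45, 0.01 and 0.0018. Lines of the same sex label gave a further view. In the female lines #620-6 minus #620-2 was 0.19 for Atf3 and 0.64 for Ddit3, while in the male lines #757-1 and #757-2 minus RF8 were -1.13 and -1.17 for Atf3 and -0.66 and -0.35 for Ddit3. In these 2 genes the female pair and both male pairs differed in direction. The difference between the sex labels, tested as a limma interaction, did not pass for Atf3 (-1.34, adjusted p = 0.37) or Ddit3 (-1.14, adjusted p = 0.47). No probe of 28915 passed that test (0%), and 3052 had an unadjusted p under 0.05. Each sex label has 1 line of at least 1 genotype, and for males slide, strain and genotype cannot be told apart.

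How far the genes varied from line to line, whatever the genotype, was described against the 20622 probes that were well above background in every line. By the brightest probe, the median range of the 10 genes was 0.42 on the log2 scale, against 0.60 over all these probes, and 6 of the 10 lay under that median. Hspa5 was the steadiest, with 11.05% of probes narrower, followed by Psat1 (17.52%), Atf4 (23.79%), Sesn2 (27.22%), Trib3 (28.31%) and Asns (31.32%). The dimmer probes gave 52.07% for Sesn2, with a range of 0.62 that lay above the median, and 39.31% for Trib3. Ddit4 (70.91%), Ddit3 (73.07%), Xbp1 (82.06%) and Atf3 (82.79%) were more variable. Thus the chaperone, Atf4 and both amino acid enzymes ranged less than the median probe, and 3 of the 4 transcription factors and Ddit4 ranged more. Atf3 and Ddit3 had dim probes, and Hspa5 and Asns the brightest of these genes. The probes compared were not matched for signal level, and its part in the ranges was not tested. Atf3 and Xbp1 passed a 2-fold range, as did 23.5% of all these probes. With normexp background correction the Atf3 range was 0.87 and no longer passed.

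**Figure D3:**
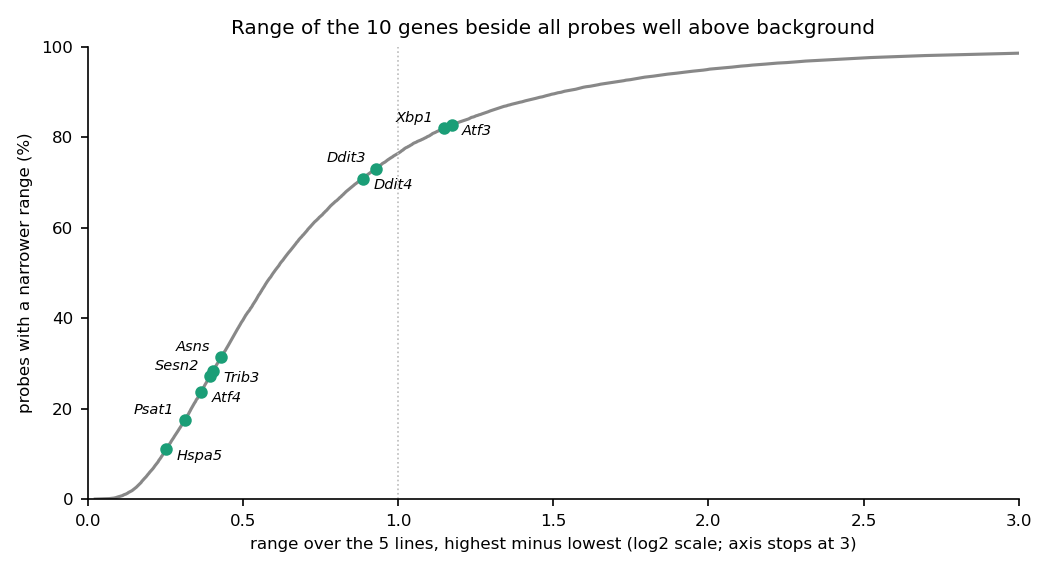
Share of 20622 probes with a narrower range (vertical axis, %) against the range over the 5 lines (horizontal axis, highest minus lowest log2 signal), with the 10 genes marked on the curve. The dotted line marks a 2-fold range, passed by Atf3 and Xbp1 only among the 10.

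Between single pairs of lines, 4 of the 100 combinations of gene and pair were more than 2-fold apart, all of them Atf3 or Xbp1. With 1 array per line these are values with no test. Atf3 was more than 2-fold lower in #757-1 and in #757-2 than in RF8, pairs in which 6.41% and 5.93% of all probes were that far apart. Xbp1 was more than 2-fold higher in #620-6 and in #757-2 than in #620-2, where 7.09% and 8.8% of probes were. No gene of the 10 was more than 2-fold apart in the other 6 pairs. Among all probes the share was 10.3% for RF8 and #620-2, 14.2% for RF8 and #620-6, and 9.48% for #620-2 and #757-1. It was 11% for #620-6 and #757-1, 8.16% for #620-6 and #757-2, and 1.83% for #757-1 and #757-2.

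For Atf3, the gene with the widest range, the 5 genes with the most similar profile over the 5 lines were found by the root mean square of the differences after centring each probe, over 20622 probes. They were Slco3a1, a transporter of organic anions, with 0.05 log2 units, the transcripts listed as ENSMUST00000072181 and AK049439 with 0.11 and 0.13, Casp8, the initiator protease of death receptor signalling, with 0.13, and Cebpa, a C/EBP transcription factor, with 0.14. Slco3a1 read 0.73 in RF8, 0.20 in #620-2, 0.28 in #620-6, -0.39 in #757-1 and -0.52 in #757-2. With 5 lines such likeness is a description only.

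The wider pathway was taken from lists of 90 further genes. No gene of any list was called. At an unadjusted p under 0.05, 1 list gene was higher and 1 lower in ECAT11EGFP/EGFP, which is under the 4.03% and 3.59% of all probes. Of 48 further ATF4 target genes, 16 had a higher and 32 a lower mean in ECAT11EGFP/EGFP, with a median log2 fold change of -0.08. Their groups did not overlap in 3 genes with ECAT11EGFP/EGFP higher (6.25%) and in 12 with it lower (25%), against 11.2% and 12.4% of all probes. Of 13 kinases, phosphatase subunits and sensors, 11 were higher and 2 lower (median 0.05), and of 29 genes for ER folding, degradation and translocation, 23 were higher and 6 lower (median 0.07). Groups did not overlap with ECAT11EGFP/EGFP higher in 1 of the 13 (7.69%) and 3 of the 29 (10.3%), and with it lower in 0 of either. The share of all probes with a higher or lower mean was not taken, so the counts of direction have no background beside them. The median over all kept probes was -0.02, so the medians of these 3 groups lay close to it.

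**Figure D4:**
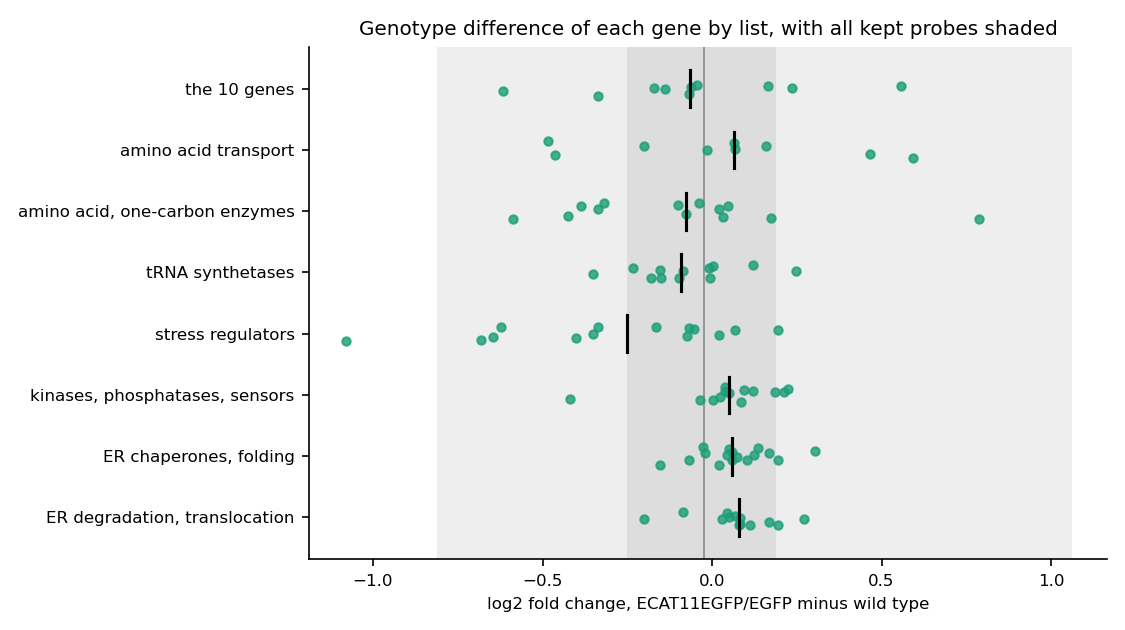
Log2 fold change, ECAT11EGFP/EGFP minus wild type (horizontal axis), for each gene of the lists (points, brightest probe, spread vertically at random) with the list median as a black bar. The dark band spans the 25th to the 75th percentile of all kept probes, the light band the 5th to the 95th, and the grey line their median of -0.02. The list medians lie between -0.25 for the stress regulators and 0.08 for ER degradation and translocation.

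Among the ATF4 targets the amino acid genes did not move together. Cth, cystathionine gamma-lyase of cysteine synthesis, read 2.89 in RF8, 2.65 in #620-2, 3.71 in #620-6, 3.53 in #757-1 and 3.43 in #757-2. Its log2 fold change was 0.79 ± 0.18 (SE), with an unadjusted limma p of 0.0078 and an adjusted p of 0.46. All 3 ECAT11EGFP/EGFP lines were above both wild-type lines, though slide 2 held no wild-type line to compare with, and Cth did not pass the correction. Slc1a5, a glutamine and neutral amino acid transporter, read 1.36 in RF8 and 2.33 to 2.97 in the other 4 lines, so its low value was that of RF8 alone. Of 12 aminoacyl-tRNA synthetases, which charge tRNAs with amino acids, 3 were higher and 9 lower, with a median of -0.09. In 6 of the 12 (Cars, Eprs, Iars, Lars, Tars and Yars, named after their values were seen) all ECAT11EGFP/EGFP lines were below both wild-type lines (50%, against 12.4% of all probes), and in 2, Nars and Sars, they were above (16.7%, against 11.2%). In each of these genes the nearest lines of the 2 genotypes were within spot error of each other. The differences of the 6 ran from -0.10 for Tars to -0.35 for Cars on the log2 scale, and none passed the test (smallest limma adjusted p = 0.80, for Cars). Nars, the asparaginyl enzyme, read 2.84 and 2.74 in RF8 and #620-2 and 3.25, 2.98 and 2.90 in #620-6, #757-1 and #757-2. Aldh18a1, of proline synthesis, was the list gene that was lower at an unadjusted limma p of 0.042 (-0.59 ± 0.21 SE, adjusted p = 0.63), and it was named after its value was seen.

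The 14 stress regulators had the lowest median, -0.25, with 3 higher and 11 lower. Chac1, which degrades glutathione, read 2.30 in RF8, 2.15 in #620-2, 1.94 in #620-6, 0.63 in #757-1 and 0.85 in #757-2. The 2 low lines were those of slide 2, as for Atf3. In limma the log2 fold change of Chac1 was -1.08 ± 0.44 (SE, adjusted p = 0.69), and with slide as a block it was -0.28. Vldlr, a lipoprotein receptor, read -0.77, -0.71, -0.95, -1.67 and -1.55 in the same order of lines and was again lowest on slide 2. Nupr1, a stress-induced chromatin protein, read 1.73, 2.55, 2.80, 0.58 and 1.17, and Vegfa, the angiogenic factor, read -0.29, 0.73, 0.63, -0.90 and -0.28. Both were lowest in #757-1, and their genotype groups overlapped. With the block the median of this list was -0.04, and the part of the slide in these values was not tested.

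**Figure D5:**
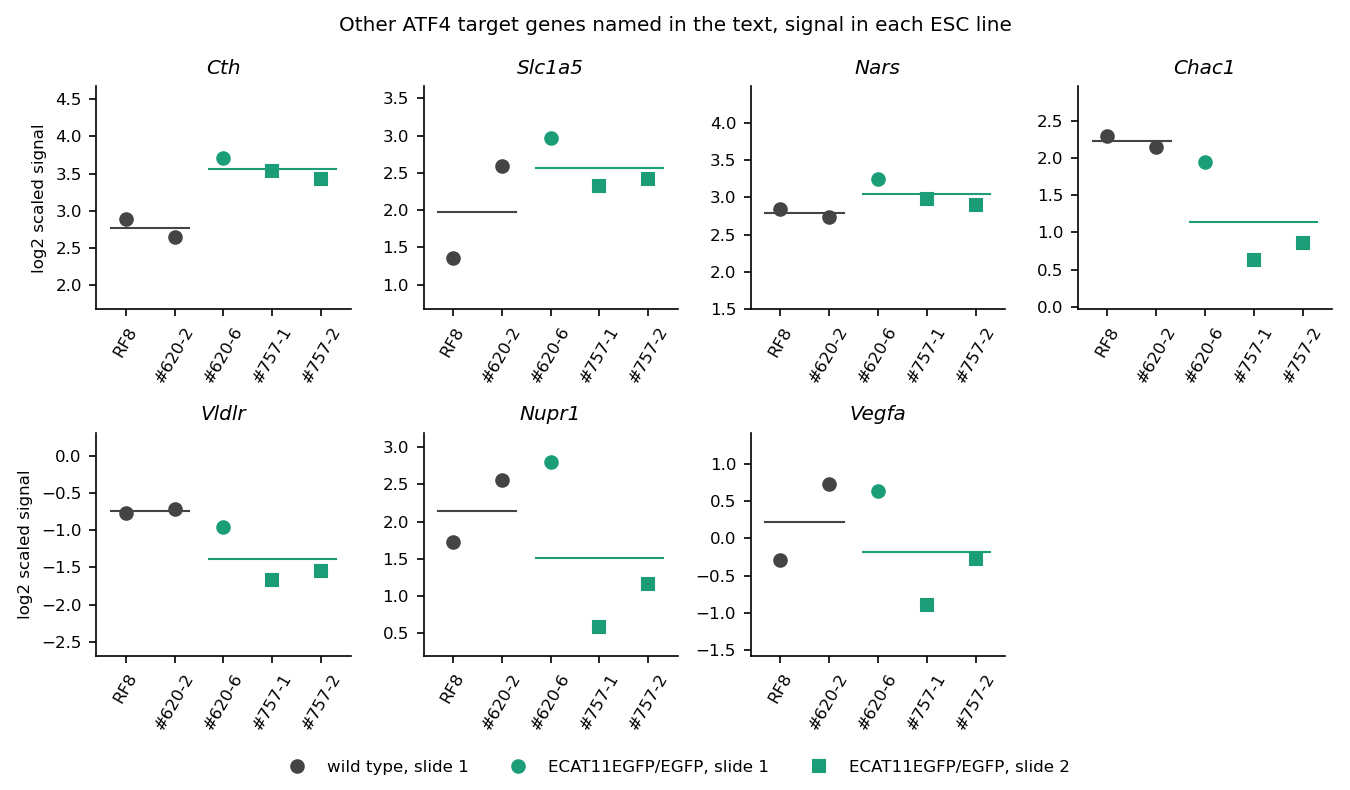
Log2 scaled signal (vertical axis, every panel spanning 3 log2 units) of 7 further ATF4 target genes in the 5 ESC lines (horizontal axis), with bars for the genotype means, circles for slide 1 and squares for slide 2. Cth is higher in all 3 ECAT11EGFP/EGFP lines, and Chac1 and Vldlr are lowest in both slide 2 lines.

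The CARE letters were in the promoters of 16 of 38 ATF4 targets with a RefSeq promoter (42.1%), and in none of 10 kinases and sensors or 24 ER genes. The ERSE letters were in 9 of those 24 ER genes (37.5%). The 3 named stress regulators with a CARE are shown over 30 bases around the match, in capitals, because their values are given above. They carry the letters TTGCATCA, the reverse complement of TGATGCAA. Of the other genes with that form, Atf3, Fgf21, Herpud1, Jdp2 and Tars were also lowest in both slide 2 lines. Got1, Aars, Pycr1, Slc1a4, Slc7a11, Iars and Yars were not. Herpud1 met this narrowly, with 1.16 in #757-1 and 1.18 in #620-2. ATF4 targets in which that form was not found had the same 2 lowest lines too: Slc6a9, Psph, Mthfd2, Aldh1l2, Aldh18a1, Cars, Lars, Cebpb, Gdf15, Slc7a1 and Pck2. The share of all probes with this profile was not taken. Fgf21, Slc7a11 and Slc7a1 were well above background on some arrays only. Whether the form goes with a profile over the lines was not tested.
Chac1 promoter, chr2:119351038-119351067, forward strand: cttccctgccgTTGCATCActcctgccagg
Nupr1 promoter, chr7:126625562-126625591, reverse strand: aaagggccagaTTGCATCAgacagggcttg
Vldlr promoter, chr19:27216809-27216838, forward strand: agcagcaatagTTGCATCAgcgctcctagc
Cth, the list gene with the smallest p, had no CARE match in its window.

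On the list of kinases, phosphatase subunits and sensors, the named genes differed little between the genotypes. Eif2ak4 (GCN2, the amino acid sensor) differed by 0.21, Nfe2l2 (NRF2, of the oxidative response) by 0.19, Eif2ak2 (PKR, which senses double-stranded RNA) by 0.02, and Ppp1r15b, a constitutive eIF2α phosphatase subunit, by 0.0027 on the log2 scale. Atf6, the ER sensor, read 0.57 in RF8, 1.28 in #620-2, 1.84 in #620-6, 0.59 in #757-1 and 0.63 in #757-2, so it was high in both #620 lines and differed by 0.09 between genotypes. The protease Mbtps2, which cuts ATF6, was highest in the same lines, at -1.23 and -0.88. It read -2.04, -1.61 and -1.73 in RF8, #757-1 and #757-2 and differed by 0.225 between genotypes. Its partner Mbtps1 differed by -0.04. The primitive endoderm marker sum was also highest in the #620 lines, as were Gata6, Sox17, Sox7 and Pdgfra, but not Gata4, Dab2 and Foxa2 in both. Of the fibroblast markers, S100a4, Col3a1, Thy1, Dcn and Lum were highest in both #620 lines. Col1a1, Col1a2, Fn1 and Postn were highest in RF8. The part of other cells in these values was not tested.

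The ER folding genes had small differences. Dnajb11, a partner of BiP, differed by 0.20 ± 0.15 (SE), Sec63 of the translocation channel by 0.27 ± 0.27 and the oxidase Ero1l by 0.30 ± 0.30, none of them past the test (limma adjusted p from 0.86 to 0.91). At the other end were Derl3 with -0.20, Hyou1 with -0.15 and Syvn1, the ubiquitin ligase of ER degradation, with -0.09. The widest ranges over the lines in this group were those of Ero1l (0.89), Derl2 (0.86) and Ero1lb (0.85). The median range of these 29 genes was 0.39, against 0.60 over all probes well above background.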

How the data were processed

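RNA of 5 ESC lines was hybridised to 5 one-colour Agilent arrays, and the authors extracted them with Feature Extraction 9.5.3.1. The deposited intensity values are background-corrected but not normalized between arrays. The files also hold flags per spot. The 1639 control spots were left out, spots marked as non-uniform or population outliers (0.335%) were treated as missing. Intensities were scaled to the 75th percentile of their array and log2-transformed, and spots of 1 probe were averaged. A probe was kept if it was Present (detected and unflagged) on 1 array or more. Groups came from the labels and limma 3.58.1 (R 4.3.3) compared them, with Benjamini-Hochberg adjustment over all kept probes, and calls needed an adjusted p under 0.05 and over 2-fold. The fit was tested on simulated data. A log2 table that the authors deposited was used as an alternative. Its differences between arrays had a slope of 0.9995 against the values above, so it is on the log2 scale in the same direction, while the shift per probe stays unknown. Its medians were -0.0225 (RF8), 0 (#620-2), -0.101 (#620-6), 0.0576 (#757-1) and 0.0772 (#757-2). The number of arrays limits the precision.

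The members and lists were chosen with earlier results of these data known. Named were all members, and in each of 3 groups of lists the 3 genes with the largest difference in each direction and the 3 with the widest range, among genes well above background on all 5 arrays, by their brightest probe. Names are those of the array, matched to RefSeq (GRCm38.p6) for list genes and promoters, and that build was not mixed with the mm7 probe positions. The alternatives were other background correction, normalization, filters, spot flags, slide or sex label in the model, a variance trend, the methods' t-test and leaving out each line. Figures were drawn with matplotlib 3.10.9.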

Additional observations from a re-analysis of the deposited data

How the results depend on the processing

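The fold changes of the 10 genes stayed uncalled in every alternative run. The sign held in all alternatives for Xbp1, Hspa5, Asns and Psat1, with values from 0.28 to 1.15 for Xbp1. The dimmer Sesn2 probe gave -0.37 against -0.14. The slide block, and equally leaving out both slide 2 arrays (an alternative chosen after seeing the data), gave 0.14 for Atf4, 0.45 for Ddit3, 0.0112 for Ddit4 and 0.0018 for Sesn2, all below 0 with 5 lines and no block. A block for the number shared in the line names (620, 757, or RF8 alone), also chosen after seeing the data, rests on #620-6 against #620-2 and gave 0.19 for Atf3, 0.0331 for Atf4 and 0.64 for Ddit3. What the shared number means is not given in the sources used here. Leaving out 1 line put Atf4 between -0.15 and 0.0633, Ddit3 between -0.32 and 0.14, and Trib3 between -0.168 and 0.0333. The 1 called probe over the whole array was lost (0 called) with normexp correction, quantile normalization, no filter, slide or sex label in the model, the methods' t-test, without any 1 line, without both slide 2 arrays and with the line-name block, and 3 were called with the stricter filter. Where 0 were called, 258 to 2472 probes were past 2-fold at an unadjusted p under 0.05. Among the 100 probes of the 10 genes and lists, 2 had an unadjusted p under 0.05. This was 5 with normexp correction, 4 with the sex label, 1 with the slide block or no filter and 0 without both slide 2 arrays, and 1 to 11 without 1 line. The count of 11 came without #620-6. Combinations of gene and line pair past 2-fold fell from 4 to 2 with normexp correction, where both of Atf3 were lost. Without the filter the median of all probes moved to 0.11. Causes of these shifts were not tested. The replicate numbers were given in accession order and pair no lines.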
